A study of Homo sapiens with 6 samples.

Results

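The 10 genes described here are switched on by ERK signaling. The transcripts of DUSP4, DUSP5, DUSP6, SPRY2, SPRY4, SPRED1, SPRED2, ETV4, ETV5 and PHLDA1 were measured in A549 cells with and without knockdown of CEP20. They were chosen by name as common readouts of ERK activity, and each matched 1 of the 60624 Ensembl genes in the deposited table. A549 is a cell line from a human lung adenocarcinoma. The 3 siCEP20 samples were transfected with siCEP20, directed against CEP20, a protein of centrioles and centriolar satellites, and the 3 siCTR samples with the control siCTR. RNA was taken after 3 days of transfection according to the labels. The treatment tag of all 6 samples reads plasmid transfection, whereas the methods describe siRNA. The labels and the methods also name different media, RNA kits and amounts of input RNA. The labels do not say which CEP20 siRNA was used or whether the samples came from separate cultures, so p-values measure the spread between these samples.

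In the ERK pathway, growth factor receptors activate RAS, which activates RAF, MEK and ERK kinases in turn. Active ERK raises the transcription of genes whose products either restrain the pathway or carry its output. The dual-specificity phosphatases DUSP4, DUSP5 and DUSP6 dephosphorylate ERK, Sprouty (SPRY) and Spred (SPRED) proteins act upstream on receptors, RAS and RAF, and ETV4 and ETV5 are ETS transcription factors of the PEA3 group. PHLDA1 encodes a pleckstrin homology-like protein induced by growth factors. mRNA levels were measured here, and neither ERK phosphorylation nor protein levels were analysed.

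These genes did not move in 1 direction. SPRY2, DUSP4 and DUSP5 rose and DUSP6 fell at an adjusted p-value under 0.05, while the other 6 did not pass that threshold. The changes were small, from 72.0% of the siCTR mean for DUSP6 to 161% for SPRY2. The genes were tested with limma on log2(TPM + 1), with p-values adjusted by Benjamini-Hochberg over the 14778 genes that averaged 1 TPM or more (TPM, a share of all transcripts, is already divided by transcript length). All 10 genes passed that filter. Fold changes on this scale are slightly understated for the genes with low TPM.

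With the fold change thresholds of the study added (over 1.5 or under 0.67), 1 of the 10 was called higher, SPRY2, and 0 were called lower. Among all tested genes 11.2% were called higher and 4.61% lower. By adjusted p alone, 3 of the 10 were higher and 1 was lower, where the shares of all tested genes were 30.2% and 13.2%. In 4 of the 10 every siCEP20 value lay above every siCTR value, and in 2 every one lay below, against 38.4% and 17.0% of all tested genes. The shares of the 10 genes were near those of all tested genes. Their median log2 fold change was 0.11 (siCEP20 against siCTR), and that of all tested genes was 0.13.

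**Figure D1:**
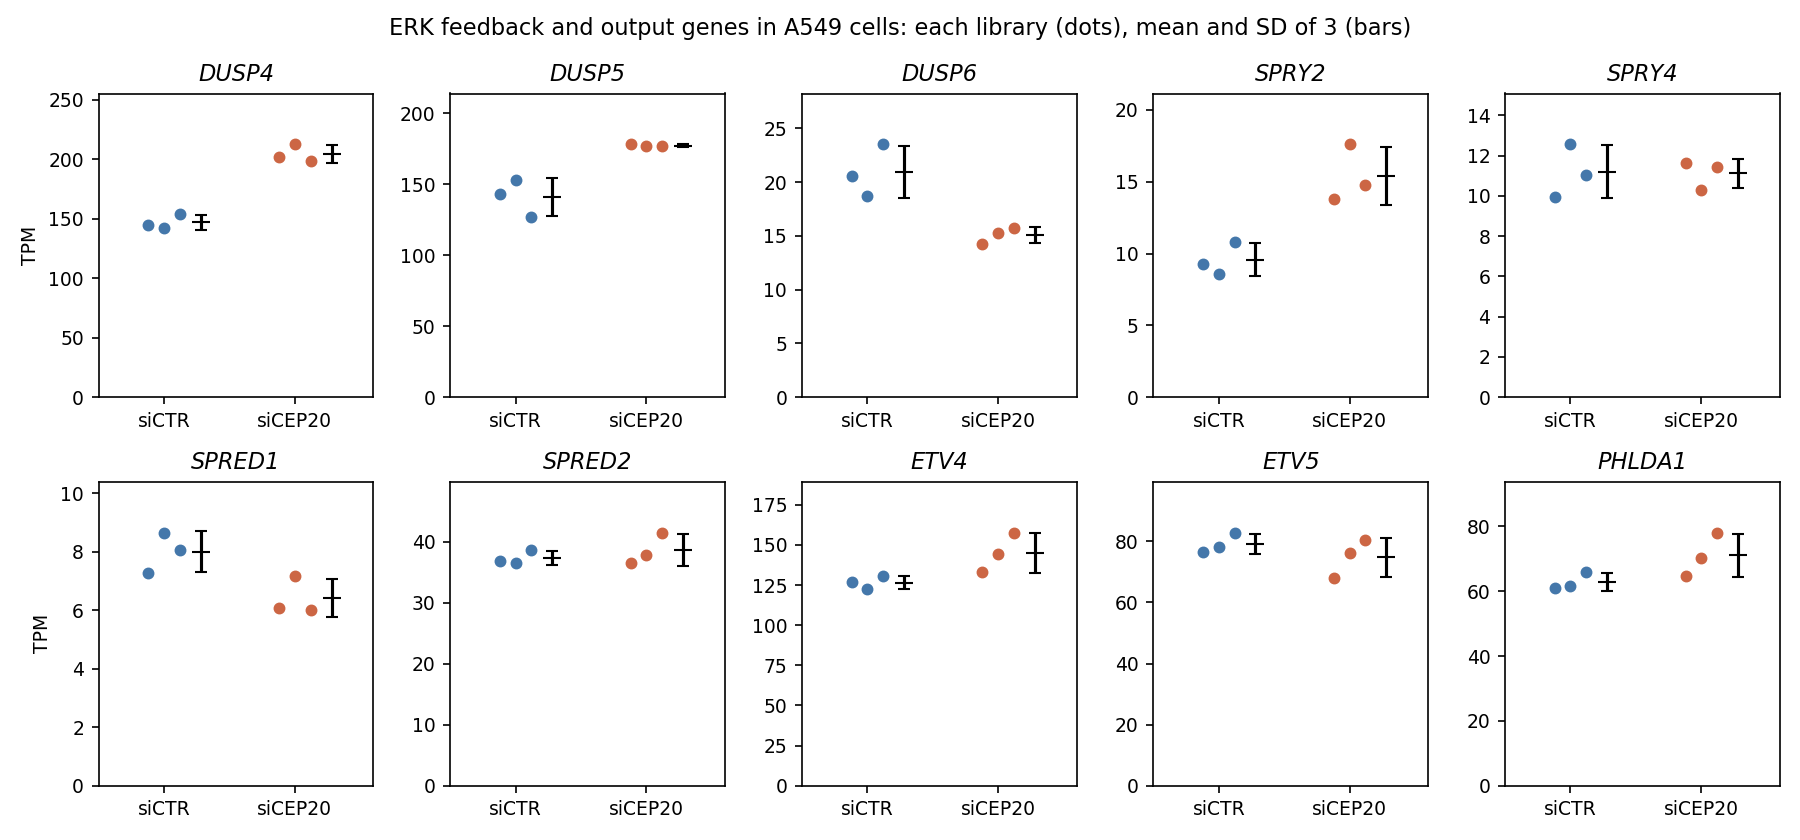
TPM (y axis, from 0) of each of the 10 genes in the 3 siCTR and 3 siCEP20 libraries, with the mean and SD of each group. The groups do not overlap for DUSP4, DUSP5, DUSP6, SPRY2, SPRED1 and ETV4, with DUSP6 and SPRED1 lower in siCEP20 and the other 4 higher.

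The targeted gene was checked first. CEP20 was at 29.2, 30.5 and 35.1 TPM in siCTR and at 16.2, 15.3 and 17.3 TPM in siCEP20 samples, -0.92 on the log2 scale (limma, adjusted p = 0.000205). Because the deposited values sum to the same total in each library, read depth is unknown, and the scale between libraries matters for small changes. Scaling by the median of ratios moved the median of all tested genes from 0.13 to 9.4e-05 and turned 1659 higher and 682 lower calls into 894 and 1103. All 5 epithelial markers rose at an adjusted p under 0.05, as did 30.2% of all tested genes. Their median log2 fold change was 0.53 (0.13 over all tested genes). Their summed level ran from 3230 to 3300 TPM in siCTR and from 4187 to 4368 TPM in siCEP20 samples. Of these EPCAM and CDH1 were called higher, as were 11.2% of all tested genes. The alveolar markers NKX2-1, SFTPB and SFTPC averaged under 1 TPM, and NAPSA differed by -0.53 on the log2 scale (limma adjusted p = 0.0796). NAPSA was called lower after median-of-ratios scaling (-0.62), after quantile normalization (-0.66) and without siCEP20 replicate 2 (-0.70). Of 5 fibroblast markers, 4 were under 1 TPM on average, and their summed level ran from 5.39 to 6.15 TPM in siCTR and from 17.7 to 20.2 TPM in siCEP20 samples, nearly all from COL1A1. The 5 leukocyte markers summed to 23.9 to 33.9 TPM in siCTR and 34.7 to 54.1 TPM in siCEP20 samples, from CD68 and CD14, while PTPRC and CD3E were at or near 0. The 3 endothelial markers summed to at most 0.109 TPM. The part of these markers in the results below was not tested. In bulk RNA, fewer cells expressing a gene and less RNA per cell cannot be told apart.

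The upstream DNA of SPRY2 and DUSP6 is shown because these genes had the largest increase and the largest decrease of the 10. The RefSeq promoter table (GRCh38.p14) held 9 windows of 300 bases for 6 of the 10 genes (DUSP6, PHLDA1, SPRED1, SPRED2, SPRY2 and SPRY4). DUSP4, DUSP5, ETV4 and ETV5 were not matched. The 250 bases before the annotated start are given 5′ to 3′ on the minus strand, at chr13:80341127-80341376 for SPRY2 and chr12:89352502-89352751 for DUSP6. Capitals mark matches to the motifs searched.
SPRY2: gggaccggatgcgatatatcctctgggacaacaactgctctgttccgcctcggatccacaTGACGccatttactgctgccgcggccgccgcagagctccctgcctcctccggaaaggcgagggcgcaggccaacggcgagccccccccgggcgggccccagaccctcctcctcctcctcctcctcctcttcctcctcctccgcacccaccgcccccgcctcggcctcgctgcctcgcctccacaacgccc
DUSP6: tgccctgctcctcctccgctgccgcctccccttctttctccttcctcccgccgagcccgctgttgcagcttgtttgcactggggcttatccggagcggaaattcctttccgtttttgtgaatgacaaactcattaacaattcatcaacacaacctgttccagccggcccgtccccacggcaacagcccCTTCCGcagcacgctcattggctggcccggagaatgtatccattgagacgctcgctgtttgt

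The motifs were sought on both strands. An ETS motif, CGGAAG, was found in the windows of DUSP6 (capitals, CTTCCG on the strand shown), PHLDA1 and SPRED2, and 19.5% of all 35116 windows in the table held it. The half-site of the cyclic AMP response element, TGACG, was found for SPRY2 (in 1 of its 3 windows), SPRY4 and SPRED2, and in 24.6% of all windows. An AP-1 motif, TGANTCA, was found for SPRED2 and in 7.71% of all windows. The CIC motifs TGAATGAA and TGAATGGA, the full response element TGACGTCA (which contains the half-site), the E-box CACGTG and the CArG box were in none of the 9 windows, and in 1.65%, 1.03%, 1.85%, 7.26% and 1.29% of all windows. SPRY2, which rose, and SPRY4, which did not pass the test, both had a window with the half-site. These matches describe letters in short windows only.

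Among the phosphatases, DUSP4 and DUSP5 rose and DUSP6 fell. DUSP4 (ENSG00000120875, chromosome 8 of hg38 from 29333064 to 29350684, minus strand) was the most abundant of the 10 genes. It stood at 144, 142 and 154 TPM in siCTR and 202, 213 and 198 TPM in siCEP20 samples. Every siCEP20 library exceeded every siCTR library, and the distance between the groups was several times the spread within them. Its mean went from 147 ± 6.13 to 204 ± 7.48 TPM (SD, n = 3 each), an increase of 0.47 on the log2 scale (SE 0.0563, limma adjusted p = 0.000445).

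DUSP5 (ENSG00000138166, chromosome 10 from 110497907 to 110511533), which encodes a phosphatase selective for ERK, was at 143, 153 and 127 TPM in siCTR samples. In siCEP20 samples it was at 178, 177 and 177 TPM. The siCEP20 libraries lay close together and above the more scattered siCTR libraries. DUSP5 thus rose by 0.33 on the log2 scale (SE 0.0722, limma adjusted p = 0.00708). Whether DUSP5 passed the adjusted p threshold depended on the scale between libraries. Its adjusted p was 0.119 after median-of-ratios scaling and 0.0523 when length and GC content of the transcripts were corrected for. Under quantile normalization it passed (0.27, limma adjusted p = 0.0292).

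DUSP6 (ENSG00000139318, chromosome 12 from 89347235 to 89352501, minus strand), often used as a readout of ERK activity, moved the other way. It stood at 20.6, 18.7 and 23.5 TPM in siCTR and 14.3, 15.2 and 15.7 TPM in siCEP20 samples. The highest siCEP20 library was below the lowest siCTR library. The mean went from 20.9 ± 2.43 to 15.1 ± 0.731 TPM (SD, n = 3 each), or -0.44 on the log2 scale (SE 0.0977, limma adjusted p = 0.00747). Measured from the median of tested genes the change was -0.58. With median-of-ratios scaling, quantile normalization and the length and GC correction it was -0.59, -0.59 and -0.62, and DUSP6 then also passed the fold change threshold.

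The phosphatases were also set against each other within each library. The ratios below were formed after the values had been seen and are given as descriptions. The ratio of DUSP4 TPM to DUSP6 TPM was 7.02, 7.59 and 6.53 in siCTR and 14.2, 14.0 and 12.6 in siCEP20 libraries. The ratio of DUSP5 TPM to DUSP6 TPM was 6.95, 8.18 and 5.40 in siCTR and 12.5, 11.6 and 11.3 in siCEP20 libraries. DUSP4 and DUSP5 each lay higher in every siCEP20 library and DUSP6 lower, so neither ratio could overlap between the groups. A factor common to a whole library cannot change the ratios. DUSP6 made up 6.79% ± 0.892 of the summed TPM of the 3 phosphatases in siCTR samples and 3.80% ± 0.204 in siCEP20 samples (SD, n = 3 each).

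**Figure D2:**
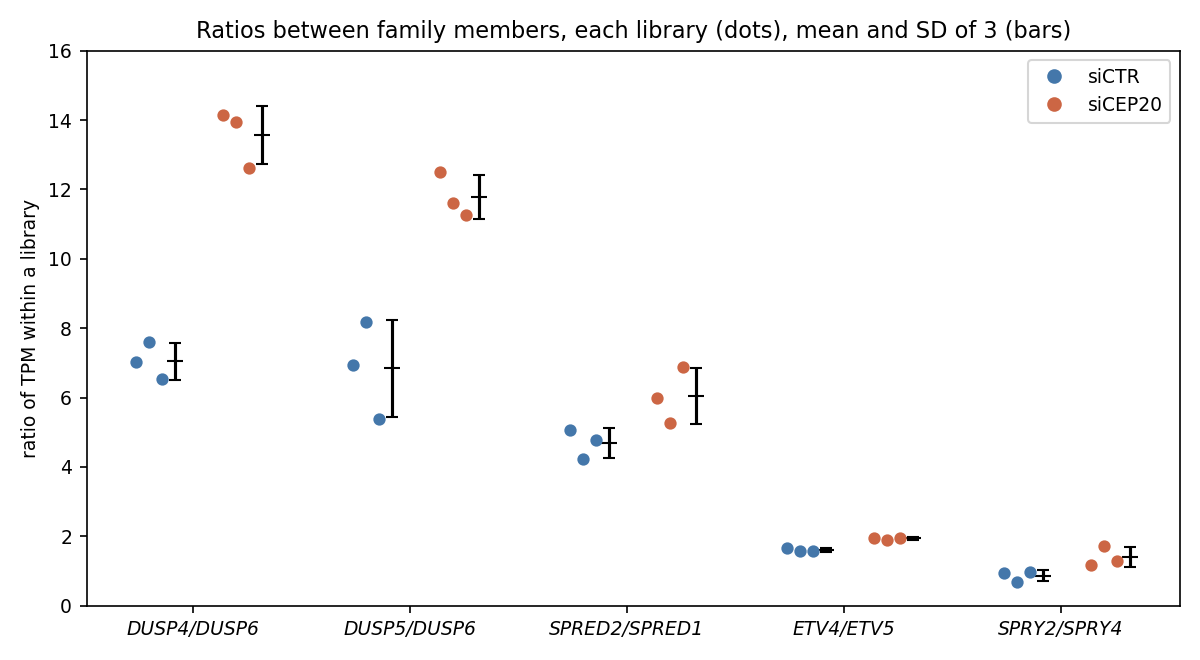
Ratio of the TPM of pairs of family members within each library (y axis, from 0; dots) with the mean and SD of 3 libraries per group. The DUSP4/DUSP6 ratio was 7.05 ± 0.531 in siCTR and 13.6 ± 0.837 in siCEP20 libraries. None of the 5 ratios shown overlapped between the groups, and the pairs were formed after the values had been seen.

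In the Sprouty and Spred families, SPRY2 rose, SPRED1 was lower without passing the test, and SPRY4 and SPRED2 differed little. SPRY2 (ENSG00000136158, chromosome 13 from 80335976 to 80341126, minus strand) encodes an inhibitor of receptor tyrosine kinase signaling to RAS. It stood at 9.26, 8.59 and 10.8 TPM in siCTR and 13.8, 17.6 and 14.8 TPM in siCEP20 samples. The groups did not overlap, although siCEP20 replicate 2 stood above the other two. SPRY2 rose by 0.63 on the log2 scale (SE 0.12, limma adjusted p = 0.00383). Without siCEP20 replicate 2 it was 0.54 (adjusted p = 0.015) and without siCTR replicate 2 it was 0.57 (adjusted p = 0.0147), both under the fold change threshold. After median-of-ratios scaling it was 0.49 (adjusted p = 0.00772), with the direction kept and the fold change call lost.

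SPRY4 (ENSG00000187678, chromosome 5 from 142310427 to 142326455, minus strand), a related inhibitor, was at 9.96, 12.6 and 11.0 TPM in siCTR samples. In siCEP20 samples it was at 11.6, 10.3 and 11.4 TPM, within the siCTR range. On the log2 scale the change was -0.01 with a 95% confidence interval from -0.25 to 0.24 (limma adjusted p = 0.973). Its sign turned with 1 library left out, to 0.07 without siCTR replicate 2 and 0.05 without siCEP20 replicate 2. SPRY4 overlaps SPRY4-AS1 on the opposite strand, which was at 1.89 to 4.10 TPM in siCTR and 3.94 to 5.54 TPM in siCEP20 libraries. Whether StringTie was told the strand is not given in the sources used here. In siCTR libraries the ranges of SPRY2 and SPRY4 overlapped, whereas in siCEP20 libraries every SPRY2 value exceeded every SPRY4 value. The SPRY2 to SPRY4 ratio was 0.930, 0.684 and 0.981 in siCTR and 1.18, 1.72 and 1.29 in siCEP20 libraries.

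SPRED1 (ENSG00000166068, chromosome 15 from 38252836 to 38357249) encodes a protein that brings neurofibromin to the membrane, where it inactivates RAS. It was the least abundant of the 10, at 7.27, 8.65 and 8.07 TPM in siCTR and 6.08, 7.16 and 6.02 TPM in siCEP20 samples. The highest siCEP20 value was just below the lowest siCTR value. The difference was -0.28 on the log2 scale (SE 0.111, limma adjusted p = 0.0734). Measured from the median of tested genes it was -0.41, and the threshold was passed with median-of-ratios scaling (adjusted p = 0.00963), quantile normalization (adjusted p = 0.00561) and the length and GC correction (adjusted p = 0.00246). Over all alternatives the adjusted p lay between 0.00246 and 0.201.

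SPRED2 (ENSG00000198369, chromosome 2 from 65310851 to 65432637, minus strand), its close relative, was at 36.8, 36.5 and 38.7 TPM in siCTR and 36.4, 37.8 and 41.5 TPM in siCEP20 samples. The groups overlapped almost fully. The difference on the log2 scale was 0.04 with a 95% confidence interval from -0.12 to 0.21 (limma adjusted p = 0.65), and it turned negative under median-of-ratios scaling (-0.10), quantile normalization (-0.08), the length and GC correction (-0.15) and without siCEP20 replicate 3 (-0.01). The SPRED2 to SPRED1 ratio was 5.06, 4.22 and 4.79 in siCTR and 5.99, 5.28 and 6.89 in siCEP20 libraries.

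Neither of the ETS factors passed the test. ETV4 (ENSG00000175832, chromosome 17 from 43527844 to 43579620, minus strand) measured 127, 122 and 130.5 TPM in siCTR and 133, 144 and 158 TPM in siCEP20 samples. All siCEP20 values were above the siCTR values, the lowest by a narrow margin. ETV4 differed by 0.19 on the log2 scale (SE 0.0712, limma adjusted p = 0.06), and by 0.06 measured from the median of tested genes. Without siCEP20 replicate 1 it was 0.25 (adjusted p = 0.0274), and over all alternatives the adjusted p lay between 0.0274 and 0.665.

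ETV5 (ENSG00000244405, chromosome 3 from 186046314 to 186110318, minus strand) was at 76.4, 78.1 and 82.9 TPM in siCTR and 67.9, 76.1 and 80.5 TPM in siCEP20 samples. The groups overlapped, with siCEP20 replicate 1 the lowest of the 6 libraries. Its log2 fold change was -0.08 (limma adjusted p = 0.419), and -0.21 measured from the median of tested genes. It passed the threshold with median-of-ratios scaling (-0.23, adjusted p = 0.0227) and the length and GC correction (-0.27, adjusted p = 0.0124). The ETV4 to ETV5 ratio was 1.66, 1.57 and 1.57 in siCTR and 1.96, 1.89 and 1.96 in siCEP20 libraries, a separation larger than the spread within either group. ETV4 overlaps DHX8 on the opposite strand (40.0 TPM on average) and ETV5 overlaps DGKG on the same strand (10.4 TPM on average), so reads can be shared.

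PHLDA1 (ENSG00000139289, chromosome 12 from 76025447 to 76031776, minus strand) was at 61.0, 61.6 and 66.1 TPM in siCTR samples. In siCEP20 samples it was at 64.8, 70.4 and 78.1 TPM, and 1 of these values lay within the siCTR range. The log2 fold change was 0.17 with a 95% confidence interval from -0.01 to 0.35 (limma adjusted p = 0.117). It was 0.04 measured from the median of tested genes and -0.06 after the length and GC correction.

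Tested 1 gene at a time over the 6 samples, p = 0.1 was found for DUSP4, DUSP5, DUSP6, SPRY2, SPRED1 and ETV4 by an exact permutation test (two-sided). This is the smallest value that 3 samples against 3 allow, so this test cannot pass 0.05. For PHLDA1, ETV5, SPRED2 and SPRY4 the exact permutation p was 0.2, 0.4, 0.7 and 1. The 5 ratios also had an exact permutation p of 0.1 each. They were formed after the values had been seen, so these p-values do not test them.

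**Figure D3:**
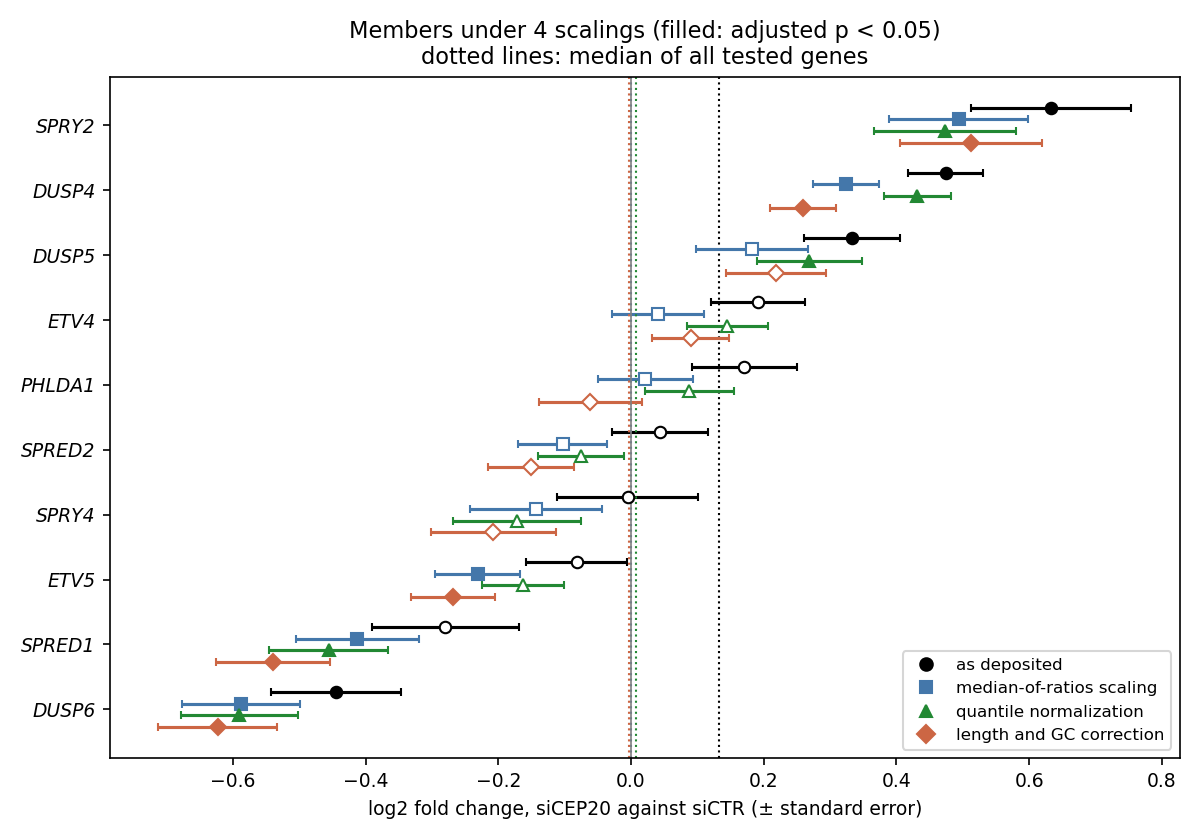
Log2 fold change (x axis, siCEP20 against siCTR, with standard error) of the 10 genes for the deposited TPM values and 3 other scalings, with filled symbols for an adjusted p under 0.05. SPRY2 and DUSP4 are above 0 and DUSP6 below 0 with filled symbols under each of the 4, whereas SPRED2 crosses 0 and the dotted lines show the median of all tested genes near 0.13 for the deposited values.

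Levels per transcript length can be ordered within each group. In siCTR samples the order of mean TPM was DUSP4 (147), DUSP5 (141), ETV4 (127), ETV5 (79.1), PHLDA1 (62.9), SPRED2 (37.3), DUSP6 (20.9), SPRY4 (11.2), SPRY2 (9.56) and SPRED1 (8.0). Neighbours whose ranges overlapped were DUSP4 and DUSP5, DUSP5 and ETV4, SPRY4 and SPRY2, and SPRY2 and SPRED1. In siCEP20 samples the first 6 kept their places, while SPRY2 (15.4) moved above DUSP6 (15.1) and SPRY4 (11.1). There the overlapping neighbours were ETV5 and PHLDA1, and SPRY2 and DUSP6. The summed level of the 10 genes was 636, 642 and 652 TPM in siCTR and 728, 768 and 781 TPM in siCEP20 libraries, most of it from DUSP4, DUSP5 and ETV4.

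Gene features that the choice of genes did not use differed from the medians of other coding genes in length and exon number. In the GENCODE annotation (release 44, hg38), the canonical transcripts of the 10 genes ran from 2286 to 7270 bases (median 4300.5), against a median of 3276 for 12269 tested protein-coding genes. Their median 3′ UTR was 2490.5 bases, against 1290 bases, and their median number of exons was 4, against 9. Transcript length moved with the fold change across coding genes, whose median log2 fold change went from -0.07 in the shortest of 5 length bins to 0.27 in the longest. The length and GC correction was fitted to this trend. SPRED1, with the longest transcript of the 10, was lower in siCEP20 libraries, and SPRY2, with the shortest, was higher. The pentamer ATTTA, found in elements that destabilize mRNA, was in the 3′ UTR of 8 of the 10 genes, with 72.1% among tested coding genes. Its count was 24 in SPRED1, 14 in PHLDA1, 2 in SPRY2, 1 in DUSP6 and 0 in DUSP5 and ETV4, with a median of 4.5 against 2 in tested coding genes. Per kb of 3′ UTR the medians were 1.80 in the 10 genes and 1.64 in tested coding genes.

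The genes whose 6 values most resembled those of SPRY2 and DUSP6 were sought among all tested genes, by the root mean square distance of log2(TPM + 1) from each gene's own siCTR mean. For SPRY2 they were ASPM (distance 0.0476), UBXN11 (0.0556) and ZNF638 (0.0627). For DUSP6 they were DPY30 (0.0508), C8orf82 (0.0542) and YARS1 (0.0554). None of these 6 genes is in the ERK lists used here. The lists hold few of the tested genes, so nothing follows from this.

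Relatives of these genes from the same families changed in both directions. Of 13 listed relatives 11 were tested, with 3 called higher and 2 lower (11.2% and 4.61% of all tested genes) and a median log2 fold change of 0.04 (0.13 over all tested genes). By adjusted p alone 4 were higher and 2 lower, beside 30.2% and 13.2% of all tested genes. DUSP8, which encodes a phosphatase acting on JNK and p38 kinases, rose from 2.48 ± 0.243 to 11.0 ± 0.450 TPM (SD, n = 3 each), by 1.79 on the log2 scale (limma adjusted p = 3.53e-05). DUSP10, another phosphatase of JNK and p38, rose from 4.13 ± 0.657 to 10.4 ± 1.75 TPM (1.15, limma adjusted p = 0.000664). DUSP16, the other relative called higher, also acts on JNK and p38, and its log2 fold change of 0.62 was under the threshold after each of the 3 rescalings (0.47, 0.52 and 0.38), without siCTR replicate 1 (0.57) and without siCEP20 replicate 2 (0.56). DUSP1 passed the adjusted p but not the fold change threshold, going from 236 ± 26.2 to 343 ± 21.2 TPM (0.54, limma adjusted p = 0.00155). It was called higher without siCTR replicate 2 (0.63) and without siCEP20 replicate 1 (0.59). PHLDA2, a relative of PHLDA1, fell from 68.4 ± 6.65 to 36.6 ± 1.65 TPM (-0.88, limma adjusted p = 0.00016). PHLDA3, the other gene called lower, had a log2 fold change of -0.60, which was -0.42 without siCTR replicate 1 and -0.58 without siCEP20 replicate 1, so that PHLDA2 was then the 1 relative called lower. Without the filter on TPM the adjusted p of PHLDA3 was 0.058 (limma).

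Other genes that ERK induces, most of them immediate early genes and ligands, included 5 that were called higher. Of 21 listed genes 17 were tested, and the adjusted p was under 0.05 for 10 increases and 3 decreases (30.2% and 13.2% of all tested genes), and their median was 0.35 on the log2 scale (0.13 for all tested genes). With the fold change thresholds these 5 (NR4A1, IER3, MYC, EGR1 and FOS) were called higher and 0 lower, against 11.2% and 4.61% of all tested genes. The same 5 were called under each of the 3 rescalings, when TGFA, an EGFR ligand, was also called lower. It was called lower as well without siCTR replicate 1 (-0.60) and without siCEP20 replicate 2 (-0.61). NR4A1, an orphan nuclear receptor, rose from 36.9 ± 1.51 to 84.0 ± 4.36 TPM (1.17, limma adjusted p = 3.12e-05). IER3, an immediate early gene, rose from 476 ± 26.0 to 881 ± 74.0 TPM (0.88, limma adjusted p = 8.26e-05), and MYC rose from 114 ± 17.7 to 219 ± 24.6 TPM (0.94, limma adjusted p = 0.000667). The 3 decreases were TGFA (-0.53, limma adjusted p = 0.00677), HBEGF (-0.41, limma adjusted p = 0.0167) and CCND1 (-0.28, limma adjusted p = 0.00441). HBEGF and CCND1 also had an adjusted p under 0.05 under each of the 3 rescalings. EGR2 and EGR3, listed as well, were at or near 0 in these cells.

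**Figure D4:**
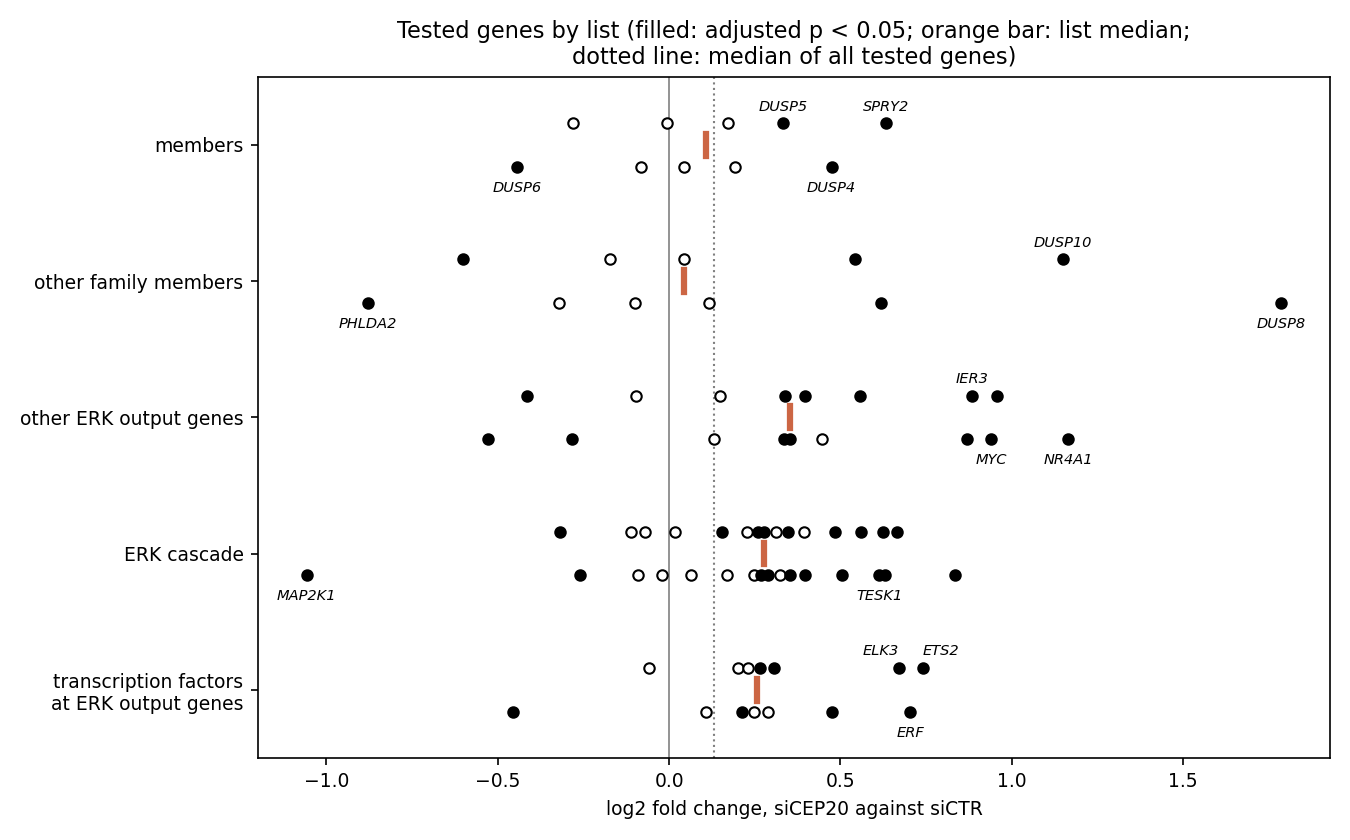
Log2 fold change (x axis, siCEP20 against siCTR) of every tested gene in the 10 members and 4 lists, with filled dots for an adjusted p under 0.05, an orange bar at each list's median and a dotted line at the median of all tested genes (0.13). The 10 genes lie between -0.44 and 0.63, a narrower span than each of the lists of relatives, other output genes and cascade genes. These lists hold more tested genes (11, 17 and 31), and a span widens with the number of genes, so nothing follows from this.

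Of 33 genes listed for the ERK cascade and proteins that act on it 31 were tested, with a median log2 fold change of 0.28. Of these 5 were called higher and 1 lower, beside the 11.2% and 4.61% of all tested genes. By adjusted p alone 16 were higher and 3 lower, beside 30.2% and 13.2% of all tested genes. After median-of-ratios scaling 9 were higher and 6 lower by adjusted p alone. MAP2K1, which encodes the ERK kinase MEK1, fell from 153 ± 7.47 to 72.8 ± 3.17 TPM, by -1.06 on the log2 scale (limma adjusted p = 3.28e-05). TESK1, whose kinase binds Sprouty proteins and is not itself a step from RAS to ERK, rose from 29.7 ± 1.61 to 46.0 ± 1.87 TPM (0.61, limma adjusted p = 0.000386). The count called higher was 1 after median-of-ratios scaling and 2 after either of the other rescalings, and MAP2K1 was called lower each time. TESK1 was not called under any of the 3 rescalings (0.47, 0.50 and 0.49), without siCTR replicate 1 (0.57) or without siCEP20 replicate 1 (0.58).

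Of 14 transcription factors and regulators that act at ERK output genes, all were tested, with 3 called higher, 0 lower (again beside 11.2% and 4.61%) and a median log2 fold change of 0.26. These were ERF, an ETS repressor that ERK exports from the nucleus (0.70, limma adjusted p = 0.00015), ETS2 (0.74, limma adjusted p = 0.000365) and ELK3 (0.67, limma adjusted p = 0.000407). By adjusted p alone 7 of the 14 were higher and 1 lower, beside 30.2% and 13.2% of all tested genes. After median-of-ratios scaling 3 were higher and 1 lower by adjusted p alone. The count called higher was 1 after median-of-ratios scaling, 2 after quantile normalization and 0 after the length and GC correction. ETS1 was called lower in the first and the last of these. CIC, the repressor of ETV4, ETV5 and several DUSP and SPRY genes, rose by 0.21 on the log2 scale (limma adjusted p = 0.0474), and after median-of-ratios scaling this was 0.06 (adjusted p = 0.567) and after the length and GC correction -0.07 (adjusted p = 0.521).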

How the data were processed

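RNA-seq libraries of 3 siCEP20 and 3 siCTR samples were analysed. The authors trimmed reads with fastp 0.20.1, aligned them to hg38 with HISAT2 2.1.0 at default settings, quantified with StringTie 2.0 and deposited TPM per Ensembl gene. The methods describe strand-marked (dUTP) libraries and the labels another kit. The annotation release and the strand setting of the quantification are not given in the sources used here. Their DESeq2 test needs counts, so log2(TPM + 1) of all genes averaging 1 TPM or more was fitted, without rescaling, by limma 3.58.1 under R 4.3.3 with trended eBayes. Calls required an adjusted p under 0.05 and the study's fold change thresholds. TPM holds no depth, so precision rests on 3 replicates per group and on the variance trend that eBayes fits over all tested genes.

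The genes and lists were chosen with earlier results of these data known. Named genes were the 10, CEP20, the 3 of each list with the smallest adjusted p, expressed overlapping genes and the 3 nearest profiles of the highest and lowest change. A named gene and a marker are not reported here. DUSP1, DUSP16, PHLDA3, EGR1, FOS, TGFA, HBEGF, CCND1, EGR2, EGR3, ETS1, CIC and markers were named after their values were seen. Symbols came from GENCODE 44, which lacked 254 of 60624 identifiers. The fit was tested on simulated data. Alternatives were other pseudocounts, filters, scalings, a replicate block, protein-coding genes only and each library left out. The correlation of same-numbered samples' deviations is given with the alternatives. Python 3.11.15, scipy 1.17.1 and matplotlib 3.10.9 were also used.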

Additional observations from a re-analysis of the deposited data

How the results depend on the processing

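SPRY2, DUSP4 and DUSP6 kept their direction and an adjusted p under 0.05 under each of 15 alternatives, and CEP20 did too (log2 fold change -1.06 to -0.84). Under median-of-ratios scaling 0 of the 10 genes were called higher and 1 lower, with 3 lower at an adjusted p alone, a median log2 fold change of -0.041, and 894 higher and 1103 lower calls among all genes. Under quantile normalization the values were 0 higher and 1 lower, 2 lower at an adjusted p alone, a median of 0.0060 and 923 higher calls. Under the length and GC correction they were 0 higher and 1 lower, 3 lower at an adjusted p alone, a median of -0.11 and 896 higher calls. The gene called lower was DUSP6. With a fold change over 2 required, 0 were called higher. With 1 library left out, between 0 and 1 were called higher. The sign of the log2 fold change turned for SPRED2 (-0.10, -0.076 and -0.15 under the 3 rescalings, and -0.0081 to 0.083 with 1 library left out), SPRY4 (-0.079 to 0.075 with 1 library left out) and PHLDA1 (-0.061 under the length and GC correction). The cause was not tested.

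The deviations of same-numbered samples correlated at 0.157, -0.06 and -0.06, and those of differently numbered samples at -0.12 to 0.17. With 3 libraries per group these values cannot decide whether the replicate numbers pair the samples. With the replicate block 1 of the 10 genes was called higher and 0 lower, and 3 increases and 1 decrease passed the adjusted p alone, as without it. Among all genes 1654 were called higher and 694 lower with the block. Depth is unknown, and 3 libraries per group limit what small changes can be resolved.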
